A study of Mus musculus with 8 samples.

Results

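Imprinted genes were followed at postnatal day 10 (PD10) in whole uteri of controls and of *Ezh2 Amhr2*-Cre cKO mice, the age at which the uterus of the mouse is starting to form glands. The members are 38 imprinted genes of the mouse, taken from a list by gene symbol and joined to the counts by Entrez identifier, out of 27179 genes in the count files. *Igf2*, *Igf2r* and *Cdkn1c* were not members. The 38 genes lie in 17 imprinted domains. Of these genes, 18 are listed as expressed from the maternal allele, 19 from the paternal allele and 1 (*Gnas*) from either, depending on transcript and tissue. For some other members the listed imprinting also holds in certain tissues only, as for *Ube3a*, which is imprinted in neurons. Which copy was read in the PD10 uterus was not measured. Statements below on the allele a gene is read from refer to this listing. All 38 were present in the count files and 34 were tested.

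RNA-seq was performed on uteri of 4 controls (genotype Ezh2 f/f, carrying the floxed *Ezh2* alleles without Cre) and 4 *Ezh2 Amhr2*-Cre cKO mice (genotype Ezh2 f/f; Acre, carrying the same floxed alleles together with *Amhr2*-Cre). Both groups were taken at PD10, no further treatment is given in the labels, and each sample gave 1 library. *Amhr2*-Cre acts in the mesenchymal lineage of the female tract, so that epithelium and other cells of the cKO uterus outside this lineage are not its target. Pooling of animals is not mentioned. The libraries held 25287141 to 36685807 counts on genes, and a gene with no count could still reach 0.0818 to 0.119 CPM, the count scaled to library size, a limit that covers counting error only.

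Genomic imprinting marks a gene by DNA methylation in the egg or the sperm so that the copy from the mother or the copy from the father is read alone. Imprinted genes cluster in domains that share a control region and often hold a long non-coding RNA (lncRNA), and several of the paternally expressed genes promote fetal growth while several of the maternally expressed genes restrain it. EZH2 is the catalytic subunit of polycomb repressive complex 2, which methylates histone H3, and in some domains, such as that of *Kcnq1ot1*, this complex is known to help silence genes on the imprinted chromosome. The counts sum both parental copies, so that a second copy becoming active and more RNA from the same copy cannot be told apart here. In whole uterus, more cells of a type and more RNA per cell cannot be told apart either.

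*Ezh2* RNA over the whole gene was at 45.0 ± 8.70 CPM (SD, n = 4) in controls and 36.8 ± 4.41 CPM (SD, n = 4) in cKO uteri, with overlapping groups (adjusted p = 0.247, edgeR's quasi-likelihood test). The deletion covers only some exons, and counts over the whole gene include the others. The paper reports the recombined allele and lower *Ezh2* mRNA by qRT-PCR in cKO uteri. It also reports less EZH2 staining in their stromal cells, though not in epithelial cells. All 20 genes of a uterus list were tested, and 5 of them (*Hoxa10*, *Hoxa11*, *Wnt5a*, *Amhr2* and *Hoxd10*) fell in cKO uteri while 0 passed the test as higher (2 at an unadjusted p under 0.05, 1 by DESeq2, 0 by limma-voom). *Amhr2* is also the gene of the Cre driver, which cKO mice alone carry, and an effect of the driver on its RNA was not tested. For this and the lists below, 2.62% of all genes tested were called higher by edgeR and 2.71% lower, so that 0 calls in a short list are near that share. Other tissues were read from their marker lists. The summed level of 10 fat genes was 7.14 to 17.3 CPM in controls and 116, 254, 121 and 8.92 CPM in cKO replicates 1 to 4, so that the sum in cKO replicate 4 lay within the control range. Single genes could differ from the sum: *Adrb3* was at 2.10 CPM in cKO replicate 4 against 0.915 to 1.18 CPM in controls and *Fabp4* at 1.61 against 0.659 to 1.43 CPM, and *Plin4* in cKO replicates 1 and 3 was not above the highest control uterus (13.1 CPM). None of these 10 genes was at 0 in every library, and 1 of the 8 tested, *Adrb3*, rose, while 7 were called by DESeq2 and 7 by edgeR without cKO replicate 4. Of 15 skeletal muscle genes, summed at 55.8 to 90.6 CPM in controls and 54.3 to 83.2 CPM in cKO uteri, 8 were tested and 2 (*Myh3* and *Tnnt3*) rose. *Acta1* makes up most of that sum. *Myh3* was over the filter of 0.2 CPM in cKO libraries alone, so that it was tested only through the group where it was high. *Myl1*, *Myh1* and *Myod1* had no count in any control library, and in the cKO libraries *Myl1* had 6 to 30 counts, *Myh1* 0 to 2 and *Myod1* 4 to 7. *Myog* had 0 to 1 counts in controls and 6 to 35 in cKO uteri, and replicate 4 held 13 counts of *Myl1*, 14 of *Myog* and 4 of *Myod1*. Of 10 nerve and Schwann cell genes, summed at 74.7 to 84.1 CPM in controls and 89.0 to 107 CPM in cKO uteri, 9 were tested and 3 (*Erbb3*, *Sox10* and *Cdh19*) rose, against 5 called as higher without cKO replicate 4. Ovary genes (4 of 10 tested, 10.7 to 15.0 CPM summed in controls and 10.6 to 18.1 CPM in cKO uteri) and oviduct genes (5 of 5 tested, 51.2 to 66.5 CPM and 54.0 to 66.5 CPM) gave 0 calls by edgeR, with 1 ovary and 1 oviduct gene at an unadjusted p under 0.05 and 1 ovary gene called by DESeq2, 1 by edgeR without cKO replicate 4 and 0 by limma-voom. The part of these tissues in the results below was not tested beyond the fits that use a fat score or cKO replicate 4 by itself.

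Most imprinted genes did not pass the test between cKO uteri and controls, and most of those that passed were higher in cKO uteri. Of the 34 members tested, 6 rose and 1 fell at an adjusted p under 0.05 (edgeR's quasi-likelihood test with Benjamini-Hochberg adjustment over 16658 genes). This is 20.6% of the members, beside 5.34% of all genes tested, and by direction 17.6% were higher beside 2.62% of all genes, and 2.94% were lower beside 2.71%. With a fold change over 2 added, the rule by which the study called genes differentially expressed (DE), 3 members were called, or 8.82% beside 1.30% of all genes. Of these 3, *Dlk1* and *Zim1* were higher (0.666% of all genes) and *Ascl2* was lower (0.636% of all genes). Every cKO library lay above every control library for 11 members, 32.4% of those tested beside 5.90% of all genes, and below for 1 member, 2.94% beside 6.43%. In either direction this was 35.3% of the members beside 12.3% of all genes. The median log2 fold change of the 34 members was 0.10, with 24 above 0 and 10 below, beside a median of 0.00044 over all genes tested. Within a genotype the members varied about as much as other genes, with a median coefficient of variation of 8.95% in controls and 8.39% in cKO uteri, beside 8.56% and 9.38% over all genes.

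The calls fell in 5 of the 17 domains. In both the *Dlk1-Meg3* and the *Peg3* domain all tested members had cKO libraries above all control libraries, and in both of them this held for maternally and for paternally expressed genes. Of the 17 tested paternally expressed members 2 rose and 0 fell by edgeR, with a median log2 fold change of 0.22. Of the 16 tested maternally expressed members 4 rose and 1 fell, with a median of 0.04. DESeq2 called *Dlk1*, *Peg3*, *Airn*, *Nap1l5* and *Zdbf2* of the paternally and *H19*, *Meg3*, *Rian*, *Zim1* and *Ppp1r9a* of the maternally expressed members, all higher, where 9.04% of all genes tested were called by DESeq2 in either direction, so that these counts depend on the tool, and the difference between the allele classes was not tested. Among the 7 lncRNA members 2 rose and 5 had non-overlapping groups, all higher, with a median log2 fold change of 0.38. The 27 protein-coding members tested had 4 rises, 1 fall and a median of 0.05.

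**Figure D1:**
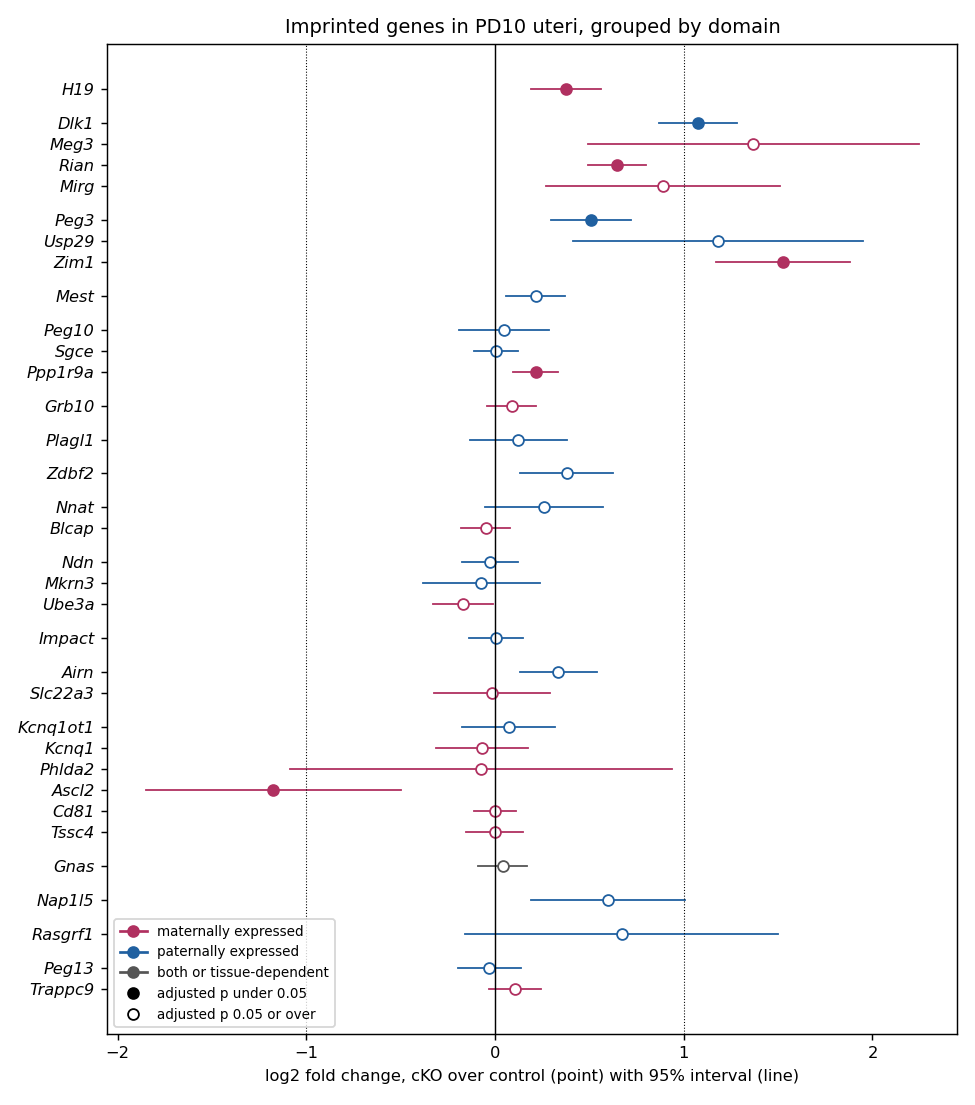
The horizontal axis gives the log2 fold change of cKO over control uteri for the 34 tested imprinted genes, with points for the estimate, lines for its 95% interval and dotted lines at 2-fold; genes are grouped by domain and coloured by the allele they are known to be expressed from. The 4 genes from *Dlk1* to *Mirg* and the 3 from *Peg3* to *Zim1* lie to the right of 0 with their whole interval, *Ascl2* lies to the left, and most other genes lie near 0.

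The *Dlk1-Meg3* domain on distal chromosome 12 held a called rise of both a protein-coding and a non-coding gene. *Dlk1* encodes a transmembrane protein related to Notch ligands that restrains differentiation of fat and other mesenchymal precursors, and is read from the paternal copy. It was at 144, 150.1, 110.0 and 138 CPM in control replicates 1 to 4 and at 290.0, 285, 314 and 254 CPM in cKO replicates 1 to 4. The lowest cKO uterus was well above the highest control uterus. *Dlk1* rose 2.11-fold, or by 1.08 in log2 units (95% interval 0.87 to 1.28, standard error 0.09; adjusted p = 6.68e-05, edgeR's quasi-likelihood test).

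*Dlk1* (Entrez 13386) lies at chr12:109452485-109463336 (GRCm38). Its RefSeq promoter window, 250 bases before to 50 after a listed transcription start on the plus strand at chr12:109452573-109452872 (GRCm38.p6), lies inside the outermost bounds of the gene, so that this start is not its first base. It is shown because it belongs to the most abundant of the DE members, with CpG dinucleotides, the sites of DNA methylation, in capitals.
Dlk1 promoter: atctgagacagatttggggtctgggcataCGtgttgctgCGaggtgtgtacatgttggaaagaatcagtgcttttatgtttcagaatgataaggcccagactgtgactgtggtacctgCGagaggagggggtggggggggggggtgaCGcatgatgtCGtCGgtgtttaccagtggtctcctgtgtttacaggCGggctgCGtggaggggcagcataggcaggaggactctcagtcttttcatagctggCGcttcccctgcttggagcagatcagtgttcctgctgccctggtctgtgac
The window holds 9 CpG dinucleotides, 0.43 of the number expected from its base composition, where the median over 32851 promoter windows is 0.38.

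*Rian*, an lncRNA that carries many small nucleolar RNAs, and *Meg3* and *Mirg*, an lncRNA with growth-restraining activity and a host of a microRNA cluster, are read from the maternal copy of the same domain. *Rian* was at 77.8, 70.1, 82.7 and 72.3 CPM in controls and at 122, 127, 119.6 and 105 CPM in cKO uteri. Its groups were apart and its spread was small in both. *Rian* rose by 0.65 on the log2 scale (standard error 0.07, 95% interval 0.49 to 0.80, adjusted p = 0.000249, edgeR's quasi-likelihood test). Its reads cannot be told apart with certainty from those of a small RNA gene within it, *AF357359*.

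*Meg3* differed more between the means but varied far more among cKO uteri. It was at 40.5, 32.6, 27.6 and 22.6 CPM in controls and at 108, 110.5, 59.5 and 40.6 CPM in cKO uteri. The highest control uterus and the lowest cKO uterus, replicate 4, were nearly level, and they overlapped when libraries were scaled by their totals. The log2 fold change was 1.37 (standard error 0.37, 95% interval 0.49 to 2.25) with an adjusted p of 0.0908 in edgeR's quasi-likelihood test, so *Meg3* was not called. The fat gene totals of these cKO uteri, in the same order, were 116, 254, 121 and 8.92 CPM, and their part in the *Meg3* values was not tested beyond the fit with a fat score given below. Without cKO replicate 4 the log2 fold change of *Meg3* was 1.59 (adjusted p = 0.0179), and for that replicate against the controls it was 0.40 (adjusted p = 0.974).

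*Mirg* was low, with 22 to 88 counts a library. It was at 1.55, 1.35, 1.07 and 0.604 CPM in controls and at 1.94, 2.95, 1.73 and 1.79 CPM in cKO uteri. The groups did not overlap but lay close, and the log2 fold change of 0.89 (standard error 0.29) did not pass the test (adjusted p = 0.0949, edgeR's quasi-likelihood test).

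The 3 lncRNA genes hold mature microRNAs in their loci, 6 in *Rian*, 3 in *Meg3* and 19 in *Mirg* (RefSeq, GRCm38.p6). The microRNAs themselves were not measured, since the libraries were made from polyadenylated RNA. Those in *Rian*, whose host gene was called, are shown with the seed (bases 2 to 8) in capitals.
miR-341-5p: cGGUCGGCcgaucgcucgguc
miR-341-3p: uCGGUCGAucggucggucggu
miR-1188-5p: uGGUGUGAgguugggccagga
miR-1188-3p: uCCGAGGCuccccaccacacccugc
miR-370-5p: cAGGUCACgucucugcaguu
miR-370-3p: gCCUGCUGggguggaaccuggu
These 6 seeds are all different. Among the 30 microRNAs listed for *H19*, *Meg3*, *Rian* and *Mirg*, a seed was shared in a single pair, both in *Mirg*.
miR-453: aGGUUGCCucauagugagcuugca
miR-496a-5p: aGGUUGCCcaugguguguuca

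The *Peg3* domain on proximal chromosome 7 held the largest rise among the members. *Zim1*, a zinc finger gene read from the maternal copy, was at 4.13, 4.76, 2.85 and 4.45 CPM in controls and at 11.1, 12.8, 13.4 and 9.35 CPM in cKO uteri. The lowest cKO uterus was far above the highest control uterus. The log2 fold change was 1.53 (standard error 0.16, 95% interval 1.17 to 1.88, adjusted p = 0.000219, edgeR's quasi-likelihood test), or 2.88-fold, from 80 to 435 counts a library.

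*Zim1* (Entrez 22776) lies at chr7:6674444-6696540 (GRCm38). Its RefSeq promoter window, on the minus strand at chr7:6696383-6696682 (GRCm38.p6), is likewise set on a listed start inside the bounds of the gene. It is shown with CpG dinucleotides in capitals because it is the sole window among those of called members that holds the TGCCGC hexamer read by ZFP57, a protein that protects imprints. It lies on the strand opposite to the one printed, where its letters read as the reverse complement, GCGGCA.
Zim1 promoter: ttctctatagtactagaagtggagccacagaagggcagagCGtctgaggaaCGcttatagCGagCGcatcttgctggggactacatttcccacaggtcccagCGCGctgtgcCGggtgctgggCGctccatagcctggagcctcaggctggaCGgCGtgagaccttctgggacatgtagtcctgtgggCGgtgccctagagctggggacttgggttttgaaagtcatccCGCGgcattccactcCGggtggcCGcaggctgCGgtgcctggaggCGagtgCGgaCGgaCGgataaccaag
The window holds 20 CpG dinucleotides, 0.72 of the number expected.

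*Peg3*, a zinc finger protein gene read from the paternal copy and known for fetal growth and maternal behaviour, was at 60.0, 68.7, 50.8 and 63.9 CPM in controls and at 81.7, 80.0, 101 and 83.2 CPM in cKO uteri. Its groups were apart, with cKO replicate 3 above the other cKO uteri. *Peg3* rose by 0.51 on the log2 scale (standard error 0.10, adjusted p = 0.0110, edgeR's quasi-likelihood test). *Usp29*, a deubiquitinase gene that starts beside *Peg3* and is read from the same copy in the other direction, had only 5 to 16 counts a library. *Usp29* was at 0.221, 0.193, 0.285 and 0.137 CPM in controls and at 0.544, 0.335, 0.462 and 0.560 CPM in cKO uteri, with a log2 fold change of 1.18 (standard error 0.35) that did not pass the test (adjusted p = 0.0752). The groups did not overlap. Only 2 of its 4 control libraries were over the filter of 0.2 CPM, against all 4 cKO libraries. The promoter windows of *Peg3* and *Usp29* share 263 of their 300 bases on opposite strands.

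**Figure D2:**
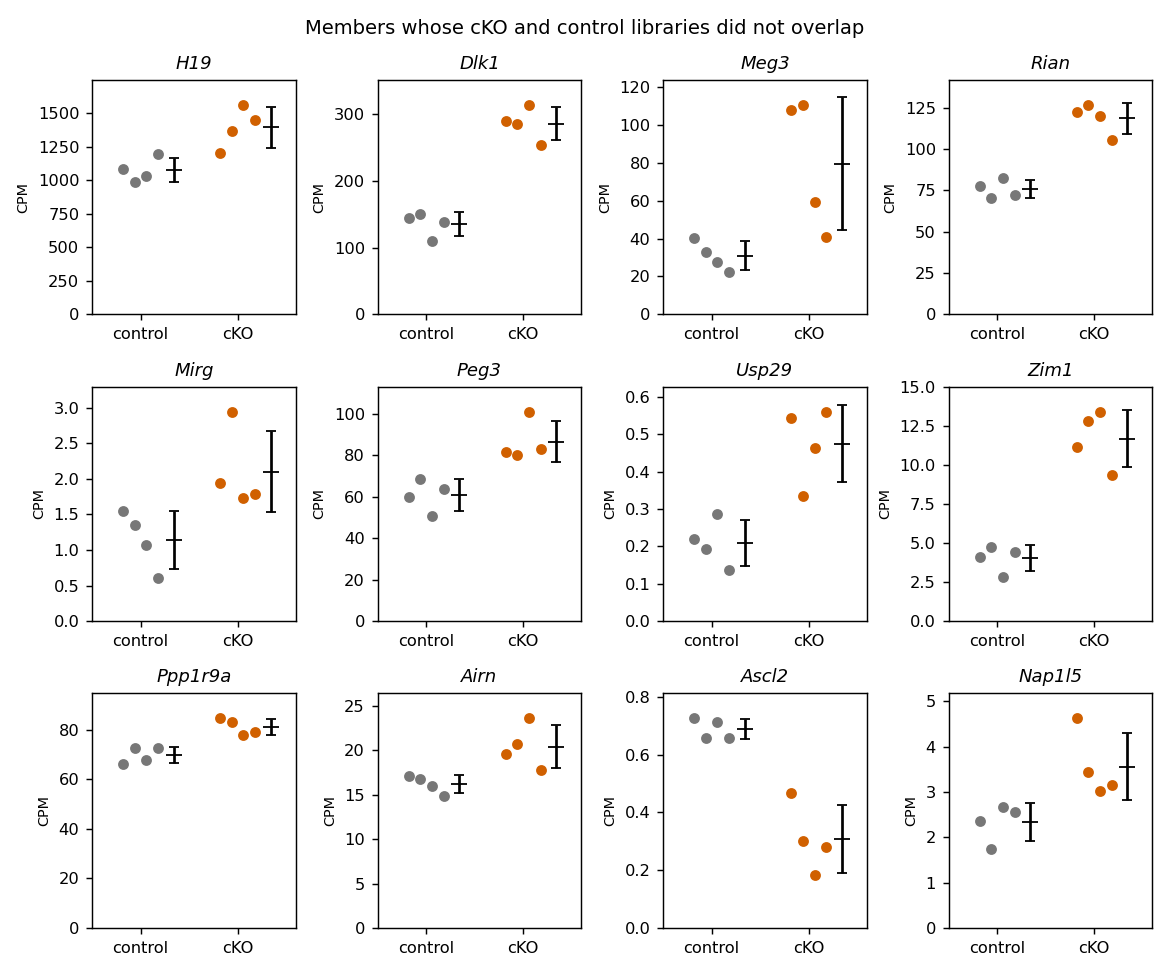
Each panel gives one of the 12 members whose groups did not overlap, with CPM on the vertical axis from 0, a point for each of the 4 control (grey) and 4 cKO (orange) libraries in order of replicate number, and a bar for mean ± SD. The groups are far apart for *Dlk1* and *Zim1*, close for *H19*, *Ppp1r9a*, *Airn* and *Meg3*, and *Ascl2* is the sole member that is lower in cKO uteri.

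*H19*, the maternally expressed lncRNA beside *Igf2*, was second only to *Gnas* in mean CPM of each group among the members. In cKO replicate 3 it was just above *Gnas* (1561 against 1551 CPM). *H19* was at 1079.6, 988, 1032 and 1197 CPM in controls and at 1199.5, 1363, 1561 and 1451 CPM in cKO uteri. The highest control and the lowest cKO uterus were almost level, and the groups overlapped when libraries were scaled by RLE size factors, the method of DESeq2, or when no filter on low counts was used. *H19* rose by 0.38 on the log2 scale (standard error 0.08, adjusted p = 0.0235, edgeR's quasi-likelihood test). The call was lost without control replicate 1 (adjusted p = 0.0748), control replicate 3 (0.0648), cKO replicate 2 (0.056) or cKO replicate 3 (0.0799). *Igf2*, the paternally expressed growth factor gene that shares enhancers with *H19*, rose by 0.48 (standard error 0.07, adjusted p = 0.00186), and *Igf2r* and *Cdkn1c* by 0.36 each (adjusted p = 0.0403 and 0.0305).

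The *H19* RNA carries the hairpin of miR-675, shown because its host was called and with seeds in capitals, on the minus strand of chr7:142577078-142577133 (GRCm38.p6).
miR-675-5p: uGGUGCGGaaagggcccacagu
miR-675-3p: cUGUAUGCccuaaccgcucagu

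*Ppp1r9a*, a maternally expressed gene of the *Peg10-Sgce* domain that encodes the actin-binding protein neurabin, had a small and even difference. *Ppp1r9a* was at 66.3, 72.7, 67.7 and 72.8 CPM in controls and at 84.5, 82.9, 77.9 and 79.1 CPM in cKO uteri. The groups did not overlap. *Ppp1r9a* rose by 0.22 on the log2 scale (standard error 0.06, adjusted p = 0.0430, edgeR's quasi-likelihood test). The call held without control replicate 2 or cKO replicate 4 and was lost without any other library, where the adjusted p was 0.0635 to 0.145. The paternally expressed genes of the domain had log2 fold changes of 0.05 for *Peg10* (22.1 ± 3.94 and 22.9 ± 1.28 CPM), a capsid-like protein derived from a retrotransposon, and 0.01 for *Sgce* (74.7 ± 2.13 and 75.0 ± 3.43 CPM), a sarcoglycan.

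The *Kcnq1* domain held the sole call downward. *Ascl2*, a basic helix-loop-helix transcription factor gene needed in the placenta and read from the maternal copy, had 6 to 24 counts a library. *Ascl2* was at 0.725, 0.658, 0.714 and 0.659 CPM in controls and at 0.466, 0.301, 0.185 and 0.280 CPM in cKO uteri. All cKO uteri were below all controls. The fall of *Ascl2* was by 1.18 in log2 units (95% interval -1.85 to -0.50, standard error 0.31, adjusted p = 0.0471, edgeR's quasi-likelihood test), and the call held among the fits without 1 library only without cKO replicate 1 (adjusted p = 0.0406), with 0.0556 to 0.129 without each of the other libraries.

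*Ascl2* (Entrez 17173) lies at chr7:142966822-142969264 (GRCm38). Its RefSeq promoter window, on the minus strand at chr7:142969215-142969514 (GRCm38.p6), is shown as that of the member that fell, with CpG dinucleotides in capitals.
Ascl2 promoter: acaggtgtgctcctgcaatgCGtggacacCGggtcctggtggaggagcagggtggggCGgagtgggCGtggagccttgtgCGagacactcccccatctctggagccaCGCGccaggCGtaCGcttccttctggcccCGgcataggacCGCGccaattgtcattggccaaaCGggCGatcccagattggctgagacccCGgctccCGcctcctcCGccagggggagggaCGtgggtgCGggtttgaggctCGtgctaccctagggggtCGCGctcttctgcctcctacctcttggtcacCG
The window holds 23 CpG dinucleotides, 0.68 of the number expected.

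The lncRNA of this domain, *Kcnq1ot1*, which is read from the paternal copy and silences its neighbours on that chromosome, was at 7.37 ± 0.627 CPM in controls and 7.75 ± 0.783 CPM in cKO uteri (SD, n = 4), a log2 fold change of 0.07 with a 95% interval of -0.17 to 0.32. It lies within *Kcnq1*, a potassium channel gene with a log2 fold change of -0.07 (22.0 ± 4.13 and 20.9 ± 0.354 CPM), and reads of the pair cannot be assigned with certainty. The maternally expressed tetraspanin gene *Cd81* (369 ± 15.4 and 369.7 ± 5.20 CPM, log2 fold change 0.0012) and *Tssc4* (40.4 ± 3.60 and 40.4 ± 0.932 CPM, log2 fold change -0.00026) were level between the groups, with 95% intervals of -0.11 to 0.11 and -0.15 to 0.15. *Phlda2*, a gene that restrains placental growth, had 4 to 10 counts a library and a log2 fold change of -0.07 with an interval from -1.08 to 0.94, which does not exclude a 2-fold difference downward.

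Outside these domains 2 further members had cKO libraries above all control libraries without passing the test by edgeR. *Airn*, the paternally expressed lncRNA that silences *Igf2r*, was at 17.2, 16.8, 16.0 and 14.9 CPM in controls and at 19.6, 20.7, 23.6 and 17.8 CPM in cKO uteri, with 0.33 as the log2 fold change (standard error 0.09, adjusted p = 0.0611, edgeR's quasi-likelihood test). It passed by DESeq2 (adjusted p = 0.0199) and, by edgeR, without cKO replicate 4 (adjusted p = 0.0182). *Airn* overlaps *Igf2r*, which rose, and which of the pair a read came from is uncertain, since the setting for strand in counting is not stated. *Nap1l5*, a nucleosome assembly protein gene inside *Herc3*, was at 2.37, 1.74, 2.68 and 2.55 CPM in controls and at 4.62, 3.45, 3.02 and 3.15 CPM in cKO uteri, with 0.60 as the log2 fold change (standard error 0.19, adjusted p = 0.0897). DESeq2 called *Nap1l5* (adjusted p = 0.046).

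The 22 tested members that remain overlapped between the groups and had log2 fold changes from -0.17 to 0.67, 13 above 0 and 9 below, with adjusted p-values from 0.0753 to 0.999. Of 8 tested members the 95% interval lay within 0.2 of 0 on the log2 scale in both directions.

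Among the growth regulators, *Mest*, a hydrolase-like protein gene, was at 204 ± 16.7 and 237 ± 18.2 CPM (log2 fold change 0.22, adjusted p = 0.110, edgeR's quasi-likelihood test). *Grb10*, an adaptor that restrains insulin and IGF signalling, was at 384 ± 17.4 and 408 ± 24.7 CPM (log2 fold change 0.09). *Plagl1*, a zinc finger regulator of other imprinted genes, was at 212 ± 19.1 and 231 ± 42.9 CPM (log2 fold change 0.12). *Rasgrf1*, an exchange factor for Ras, had 4 to 19 counts a library and a log2 fold change of 0.67 with an interval of -0.16 to 1.50. *Zdbf2*, a paternally expressed gene with a role in the hypothalamus, was at 12.4 ± 1.30 and 16.2 ± 2.25 CPM (log2 fold change 0.38, adjusted p = 0.0753, edgeR's quasi-likelihood test).

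In the *Snrpn-Ube3a* domain no tested member was higher in cKO uteri. *Ndn*, encoding the growth suppressor necdin, was at 79.1 ± 4.82 and 77.7 ± 5.99 CPM (log2 fold change -0.03). *Mkrn3*, a ubiquitin ligase gene, was at 3.62 ± 0.434 and 3.43 ± 0.282 CPM (log2 fold change -0.07). *Ube3a*, a ubiquitin ligase gene that is imprinted in neurons, was at 79.4 ± 4.04 and 70.7 ± 7.24 CPM (log2 fold change -0.17, adjusted p = 0.208, edgeR's quasi-likelihood test), and it overlaps *Snhg14*. By the same test without cKO replicate 4, a fit that called 10.7% of all genes tested, *Ube3a* was called as lower (adjusted p = 0.0425). *Snrpn* was listed with 0 counts in all 8 libraries and *Magel2* with 0 to 3, and neither was tested. The *Snrpn* locus overlaps *Snhg14* and *Snurf*, and *Snurf* also had 0 counts in every library. How reads in overlapping genes were assigned is not stated.

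Of the other members, the *Nnat-Blcap* pair overlaps in the genome. *Nnat*, a small membrane proteolipid gene read from the paternal copy, was at 8.39 ± 1.84 and 10.1 ± 0.548 CPM (log2 fold change 0.26), and *Blcap* was at 47.9 ± 2.37 and 46.2 ± 2.01 CPM (log2 fold change -0.05). *Peg13*, an lncRNA within *Trappc9*, was at 34.4 ± 3.64 and 33.7 ± 1.09 CPM (log2 fold change -0.03), and *Trappc9*, a trafficking complex gene, at 37.4 ± 1.02 and 40.2 ± 2.58 CPM (log2 fold change 0.11). *Impact*, a translational regulator, was at 32.1 ± 0.735 and 32.2 ± 2.31 CPM (log2 fold change 0.01). *Slc22a3*, an organic cation transporter of the *Igf2r-Airn* domain, was at 87.3 ± 17.2 and 86.3 ± 11.4 CPM (log2 fold change -0.02). *Slc22a2*, its neighbour, had 0 to 7 counts a library and the potassium channel gene *Kcnk9* had 0 in each, and these were not tested. *Gnas*, encoding the stimulatory G protein subunit, was at 1545 ± 74.8 and 1588 ± 67.7 CPM (log2 fold change 0.04).

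Divided by exon length (the union of exons in GENCODE M21, which is long for genes with many transcripts), the levels of the 34 tested members were far apart. *H19* was the highest at 437 CPM per kilobase in controls, followed by *Gnas* at 138, *Cd81* at 128, *Mest* at 51.7 and *Grb10* at 42.2 CPM per kilobase. *Dlk1* was at 24.0 CPM per kilobase in controls and at 50.5 in cKO uteri. *Rian* (4.15), *Meg3* (1.70) and *Zim1* (0.501) were lower in controls, and *Rasgrf1* (0.0272) and *Usp29* (0.0116) were the lowest. Together the 38 genes took 4615 to 4882 CPM of a control library and 5405 to 5690 CPM of a cKO library, and *H19* and *Gnas* made up 53.4% to 55.3% of that sum in every library.

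**Figure D3:**
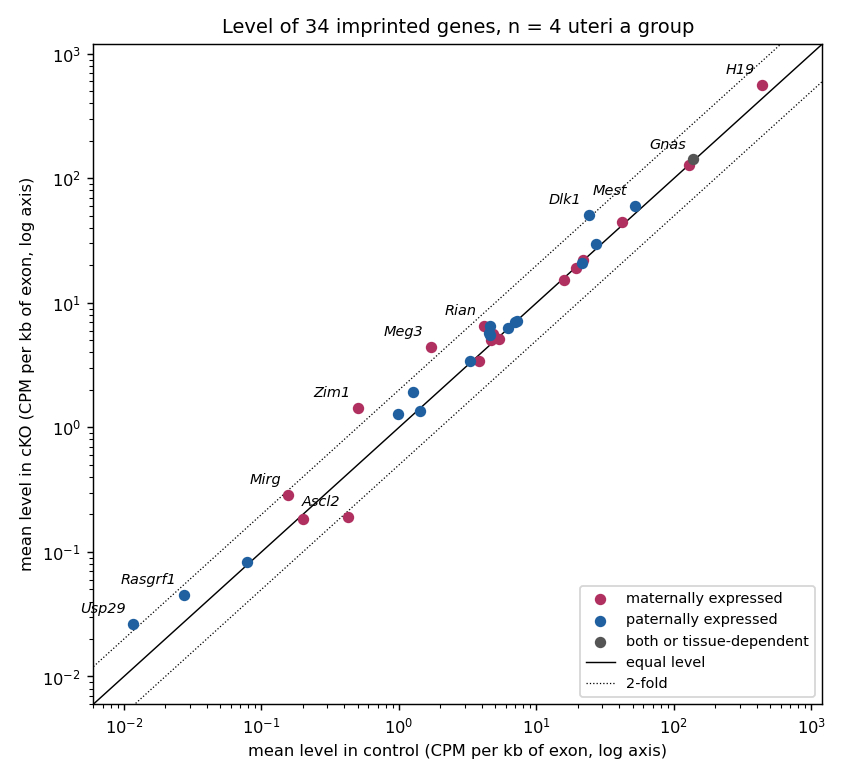
The mean level of each of the 34 tested members in 4 control uteri (horizontal) is plotted against that in 4 cKO uteri (vertical), in CPM per kilobase of exon on log axes, with a line of equal level and dotted lines at 2-fold. *H19* is at the upper right, from 437 to 567 CPM per kilobase, *Dlk1*, *Meg3*, *Zim1* and *Usp29* lie at or beyond the upper 2-fold line, and *Ascl2* lies beyond the lower one.

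The summed fat genes, though not *Adrb3* and *Fabp4*, were within the control range in cKO replicate 4, and the sum was high in the other cKO uteri, so that the called members were also read in that library. *Dlk1* in cKO replicate 4 was 1.88 times and *Zim1* 2.31 times the control mean. In a fit of cKO replicate 4 against the controls, with its spread assumed to be like that of the other groups, *Dlk1* had a log2 fold change of 0.91 (adjusted p = 0.0184) and *Zim1* of 1.21 (adjusted p = 0.0497, edgeR's quasi-likelihood test). *Rian* (0.48, adjusted p = 0.0666), *Peg3* (0.45, adjusted p = 0.430), *H19* (0.43, adjusted p = 0.322), *Ppp1r9a* (0.18, adjusted p = 0.704) and *Ascl2* (-1.28, adjusted p = 0.591) did not pass in that fit, in which 0.312% of all genes passed. With a fat score over 8 genes as a covariate, *Dlk1* (0.94, adjusted p = 0.0103), *Zim1* (1.24, adjusted p = 0.0259) and *Rian* (0.49, adjusted p = 0.0325) passed the test. In that fit the log2 fold changes of *H19* (0.46, adjusted p = 0.172), *Peg3* (0.48, adjusted p = 0.287), *Ppp1r9a* (0.18, adjusted p = 0.561) and *Ascl2* (-1.25, adjusted p = 0.469) stayed of similar size without passing, and *Meg3* was at 0.45 (adjusted p = 0.863). Of all genes tested, 5.34% passed without the fat score and 0.654% with it.

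**Figure D4:**
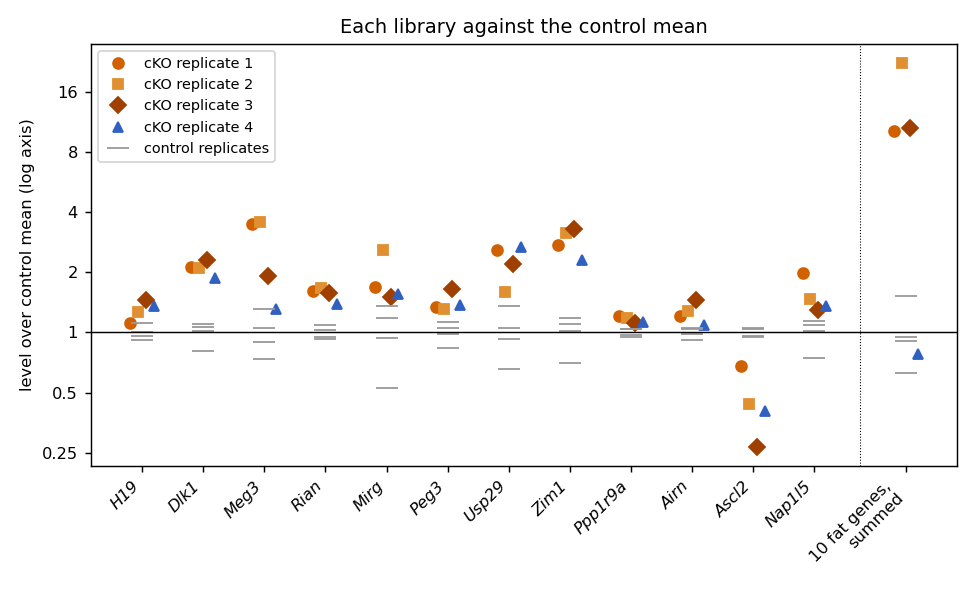
The vertical log axis gives the level of each library over the control mean for the 12 members whose groups did not overlap and, at the right, for the sum of 10 fat genes; coloured symbols are cKO replicates 1 to 4 and grey ticks are control replicates. cKO replicate 4 (blue triangles) lies within the controls for the summed fat genes, at 1.88 for *Dlk1* and 2.31 for *Zim1*, and near the highest control for *Meg3*.

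The promoter windows of the members were searched for motifs of imprinting factors. RefSeq promoter windows matched 30 of the 38 members, 42 windows in all, since a gene can have several. The ZFP57 hexamer (TGCCGC, either strand) was in 11 of the 42 windows (26.2%), beside 11.6% of 32851 promoter windows of the same length. The 11 include a pair of *Mest* windows, starting at chr6:30737800 and chr6:30737803, that hold the same sites. The hexamer contains a CpG, and the members' windows were richer in CpG than all windows, as given below. The shares were not compared at equal base composition. It was in 1 of 7 windows of called members, that of *Zim1*. A core of the motif of YY1 (AAGATGGC, either strand), a factor that binds several imprinted control regions, was in 1 window of the 42 (2.38%), that of *Ube3a*, beside 2.75% of all. The median ratio of observed to expected CpG dinucleotides was 0.61 in the members' windows and 0.38 over all windows.

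Further imprinted genes were read from a list of 50, of which 48 were in the count files and 42 were tested. Of these, 4 rose and 0 fell by edgeR's quasi-likelihood test, beside 2.62% higher and 2.71% lower over all genes tested. At an unadjusted p under 0.05, 6 were higher and 5 lower. DESeq2 called 4 higher and 2 lower, limma-voom 4 higher and 0 lower, and edgeR called 5 higher and 1 lower without cKO replicate 4. The median log2 fold change was 0.02. *Klf14*, a maternally expressed transcription factor gene near *Mest*, rose by 1.41 on the log2 scale, from 1.69 ± 0.292 to 4.51 ± 0.710 CPM (standard error 0.18, adjusted p = 0.000672). *Slc38a4*, a paternally expressed amino acid transporter gene, rose by 0.85, from 21.6 ± 3.56 to 39.1 ± 2.59 CPM (standard error 0.11, adjusted p = 0.000588). *Igf2os*, antisense to *Igf2*, rose by 0.67 (adjusted p = 0.0188) and its reads cannot be told apart from those of *Igf2* without strand. *Trpm5*, an ion channel gene near *Kcnq1*, rose by 0.27 (adjusted p = 0.0165). *Rtl1*, the paternally expressed retrotransposon-derived gene between *Meg3* and *Rian*, named after its values were seen, was at 0.159 ± 0.0957 and 0.493 ± 0.209 CPM, a log2 fold change of 1.59 (adjusted p = 0.0721). It had 1 to 25 counts a library, and all cKO libraries but only some control libraries were over the filter of 0.2 CPM. Also listed from this region were *Dio3os* (0.62, adjusted p = 0.264), *Dio3* (0.42, adjusted p = 0.295) and *Begain* (0.0087, adjusted p = 0.979). None of them passed edgeR's quasi-likelihood test.

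Genes that keep or read imprints did not pass the test with all 8 libraries. Of 22 such genes, including the DNA methyltransferase *Dnmt1*, its partner *Uhrf1*, *Zfp57*, *Zfp445*, *Trim28*, *Ctcf* and the TET enzymes, 20 were tested and 0 were called by edgeR, DESeq2 or limma-voom, with 2 at an unadjusted p under 0.05, *Dnmt3l* (log2 fold change -0.76) and *Kdm1b* (-0.23), both lower. *Kdm1b* was called as lower by edgeR without cKO replicate 4, a fit that called 10.7% of all genes tested, and with all libraries 5.34% of all genes were called, so that no call among 20 genes is near that share. *Zfp57* was at 5.45 to 9.56 CPM in controls and at 7.49 to 11.3 CPM in cKO uteri, with overlapping groups.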

How the data were processed

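The authors trimmed the reads of TruSeq stranded mRNA libraries with Trimmomatic, aligned them to GRCm38 with HISAT2, counted them with featureCounts and deposited raw counts per Entrez gene for 27179 genes in each library. The annotation release and the setting for strand are not given in the sources used here. A second deposited file, the authors' comparison by edgeR, gives per gene a log2 fold change, a mean log2 CPM, p-values and an F statistic, a score; the gene symbols alone were taken from it.

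Symbols came from that table and a RefSeq table of GRCm38.p6 (25440 genes named), which also gave coordinates, and exon lengths came from GENCODE M21. With R 4.3.3, edgeR 4.0.16 and TMM scaling, the 16658 genes that exceeded 0.2 CPM in 4 or more libraries were fitted with glmQLFit (robust = TRUE) and glmQLFTest, with a prior count of 0.125 and all 8 libraries in the fit. DE means over 2-fold with an adjusted p under 0.05. Standard errors were the size of the log2 fold change over the square root of F, and intervals are at 95%. CPM values are TMM-normalized, and summed levels of lists use library totals. Tested on simulated counts for 16658 genes of this comparison, the fit recovered 197 of 200 genes changed by 4-fold with 0 false calls. The changed genes were drawn only from those above a minimum mean count, and no called member changed by 4-fold. Recovery of smaller changes, or of genes at counts as low as those of *Ascl2*, was not simulated. Libraries differed beyond sampling noise in all 28 pairs (chi-square per gene 7.44 to 30.0). The members and lists were chosen with earlier results of these data known. All members are given, with values of each library for those called, those not overlapping and the 5 with the largest fold change, and called genes of the further lists are named. Alternatives were RLE size factors, library totals, no filter, CPM over 1, DESeq2 1.42.0, limma-voom (limma 3.58.1), robust = FALSE, a replicate block, each library left out, a fat score covariate, cKO replicate 4 by itself, and a prior count of 2. The labels give no batch.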

Additional observations from a re-analysis of the deposited data

Results flagged for a closer look

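In 3 of 68 groups of 4 libraries of a tested member, 1 library stood apart from the other three by Dixon's ratio, the gap to the nearest library over the whole range, with a critical value of 0.829. Chance gives about 1 group in 20. *Peg3* was at 101 CPM in cKO replicate 3 and at 80.0 to 83.2 CPM in the other cKO libraries (ratio 0.848). *Cd81* was at 392 CPM in control replicate 2 and at 360.4 to 363 CPM in the other controls (ratio 0.910). *Trappc9* was at 36.3 CPM in cKO replicate 4 and at 41.4 to 41.6 CPM in the other cKO libraries (ratio 0.970).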

How the results depend on the processing

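No called member changed direction under any of the 19 alternatives. *Dlk1* and *Zim1* passed the test in all of them, with adjusted p-values up to 0.0184 and 0.0497, *Rian* in all but the fit of cKO replicate 4 by itself (0.0666), and *Peg3* in all but that fit (0.43) and the fat score covariate (0.287). *Ascl2* lost its call in 13 and was not tested with CPM over 1, *Ppp1r9a* lost its call in 10 and *H19* in 6. *Meg3*, not called, passed with robust = FALSE (0.017), DESeq2 (0.00412), limma-voom (0.0346), the replicate block (0.00237) and without cKO replicate 4 (0.0179). Over all uncalled members and alternatives, the sign of a log2 fold change differed 53 times.

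The 7 called members became 3 with the fat score covariate and 2 with cKO replicate 4 by itself, and the 6 that rose became 3, 2 and, with DESeq2, 10. The DE members fell from 3 to 1 with the fat score and to 1 with cKO replicate 4 by itself. The 217 DE genes became 139 with CPM over 1, 46 with the fat score and 29 with cKO replicate 4 by itself. Leaving out 1 library gave 142 (without cKO replicate 2) to 336 DE genes (without cKO replicate 4), 143 without control replicate 1, 4 to 9 called members, 4 to 8 that rose, 1 to 3 DE members and 11 to 16 members without overlap. The 4 called members were *Dlk1*, *Peg3*, *Rian* and *Zim1* without control replicate 1, control replicate 3, cKO replicate 2 or cKO replicate 3, and the sole DE member was *Zim1* without control replicate 3, where *Dlk1* was just under 2-fold (0.99).

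The replicate numbers did not pair the libraries, with correlations of same-numbered libraries of 0.054, 0.149, -0.061 and 0.262, and 1 of 4 numbers matching best with itself. With the replicate block 9 members were called, adding *Airn*, *Meg3*, *Mirg* and *Zdbf2* and without *Ascl2* and *Ppp1r9a*, and 1240 genes against 889 had an adjusted p under 0.05. *Ascl2*, *Usp29*, *Phlda2* and *Rasgrf1*, at 4 to 24 counts a library, are limited by depth.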
